A study of Homo sapiens with 12 samples.

Results

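Very long genes, those that span at least 400 kb of the genome from the first to the last annotated exon, were followed in MDA-MB-231 cells after transfection of locked nucleic acids (LNAs) against mitochondrial tRNAs. Members were taken from the deposited count table by span (at least 400 kb on a main chromosome) and by level (a mean of at least 100 reads over the 12 libraries), and long noncoding RNA names, PTPR, collagen and laminin genes and FARS2 were dropped. The rule left 184 genes of 52859 in the table. Of 554 genes this long on main chromosomes, 365 were below the level and 5 were dropped by name. Within the rule, the values used were the span and the mean count over all groups together, and neither is given here as a finding. The class itself was chosen with earlier results of these data known, so the counts below describe a chosen class. All 184 members entered the test, and 13 of them had a mean of under 100 reads in the control libraries, so that they met the level rule through the other groups. FHIT, CACNA2D1, SPOCK1, IMMP2L and ULK4, whose changes are given below, are among the 13, and their rises are in part fixed by the choice.

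Transcribing such a gene takes RNA polymerase II hours because of its length, nearly all of which is intron. The output of very long genes is known to depend on elongation factors, on topoisomerases that relieve the twist ahead of and behind the polymerase, and on the U1 snRNP, which shields nascent transcripts from early cleavage and polyadenylation. Many genes of this class code for adhesion molecules, scaffolds, channels and signalling enzymes that are best known from neurons, and several lie at common fragile sites, where slow replication leaves chromosomes prone to breaks.

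MDA-MB-231 is an established human breast cancer line with mesenchymal features that lacks oestrogen and progesterone receptors. An LNA is a short, chemically locked antisense oligonucleotide that pairs with a complementary RNA. Cells received 20 nM of a control LNA, of 1 of 2 LNAs against the mitochondrial asparagine tRNA (mtAsn-1 and mtAsn-2) or of 1 aimed at the lysine tRNA of mitochondria (mtLys), delivered with Lipofectamine 2000, and were collected at day 2. There were 3 libraries per group. All 4 groups share the line, the transfection reagent, the dose and the time, and no untransfected cells were analysed here.

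Total counts ran from 17978825 to 37708993 per library, mitochondrially encoded genes held 0.881% to 1.23% of them, and replicates correlated at 0.9925 to 0.9963 across genes. The labels do not say whether the replicates were separate cultures, so the p-values below reflect library-to-library spread only, and that spread may be technical. Mesenchymal markers of the line were abundant except SPARC, at 3.25 to 6.39 CPM (counts scaled to library size). Summed over all 7 genes they were at 6512 to 6915 CPM in control, 7325 to 7893 under mtAsn-1, 6063 to 6291 under mtAsn-2 and 7272 to 7516 under mtLys. ESR1 and PGR, the hormone receptor genes, reached at most 0.286 and 0.0312 CPM in any library. Other luminal markers were present, with KRT19 at 239 to 405 CPM, GATA3 at 10.2 to 14.2 and EPCAM at 3.45 to 6.21. CDH1 and FOXA1 reached at most 0.523 and 0.578 CPM. Sums over 5 leukocyte markers were 2.76 to 3.92, 3.74 to 4.23, 3 to 3.68 and 4.34 to 5.32 CPM in the same order of groups, and sums over 5 neuron markers were 10.0 to 11.9, 13.1 to 15.4, 15.0 to 16.6 and 13.6 to 14.1 CPM. No marker of these lists was at 0 in all libraries. Sums over 7 luminal markers were 356 to 367, 355 to 421, 260 to 296 and 352 to 402 CPM. All 4 sums differed between some of the groups, the leukocyte sum being highest under mtLys, and their part in the results below was not tested.

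The members spanned 400.498 to 1555.29 kb, with a median of 523.634 kb. Their median exonic length was 11.7 kb in 26 exon blocks, and the median of the longest intron was 132.8 kb. Over the 11022 genes of main chromosomes with a mean count of at least 100, the same medians were 30.9 kb of span, 4.43 kb of exons, 11 exon blocks and 9.04 kb for the longest intron. PDE4D, a cyclic AMP phosphodiesterase gene, was the longest member, followed by FHIT at 1504 kb and IL1RAPL1 at 1369 kb. Members lay on 22 chromosomes, with 17 each on chromosomes 1 and 7. RefSeq lists 180 as protein coding and DLEU1 as noncoding, and 3 symbols (FAM155A, FAM172A and N6AMT1) were not matched. At the span threshold, BMPR1B (400.498 kb) and TNIK (401.994 kb) fell inside, and HECW2 (399.62 kb) and DTNA (398.554 kb) outside. At the level threshold, WDPCP (mean count 107.2) and IMMP2L (115.4) fell inside, and AKAP6 (94.2) and PIEZO2 (93.8) outside.

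Per exonic length, the most abundant members over all libraries were SND1, EDIL3, MAD1L1 and MACF1. In control cells EDIL3, an integrin-binding matrix protein gene, stood at 33.5 ± 2.6 reads per exonic kb and library size (RPKM, that is CPM divided by exonic length; SD, n = 3), and SND1, which encodes a nuclease of the RNA-induced silencing complex, at 32.5 ± 1.29. MAD1L1, a spindle checkpoint gene, was at 21.1 ± 0.446 RPKM, and MACF1, which links microtubules to actin, at 20.2 ± 0.951. The levels of EDIL3 and SND1 differed by less than their spread, and so did those of MAD1L1 and MACF1. The median member was at 1.46 RPKM in control cells.

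In every library with the mtAsn-1 or mtLys LNA the very long genes stood above the control libraries, and with mtAsn-2 they stood slightly below. The median over members of the log2 level relative to the mean of the control libraries was 0.03, -0.05 and 0.02 in the control libraries themselves. It was 0.48, 0.57 and 0.51 under mtAsn-1, -0.11, -0.09 and -0.09 under mtAsn-2, and 0.50, 0.50 and 0.46 under mtLys. The mtAsn-1 and mtLys libraries overlapped each other and were apart from the control and mtAsn-2 libraries. The share of all counts that fell in members ranged from 0.573% to 0.608% in control, 0.786% to 0.816% with mtAsn-1, 0.545% to 0.568% with mtAsn-2 and 0.782% to 0.807% with mtLys. Without the 10 most counted members the shares were 0.390% to 0.413%, 0.556% to 0.579%, 0.381% to 0.391% and 0.552% to 0.568%. In bulk RNA, a change in the RNA per cell and a change in the mix of cells cannot be told apart.

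**Figure D1:**
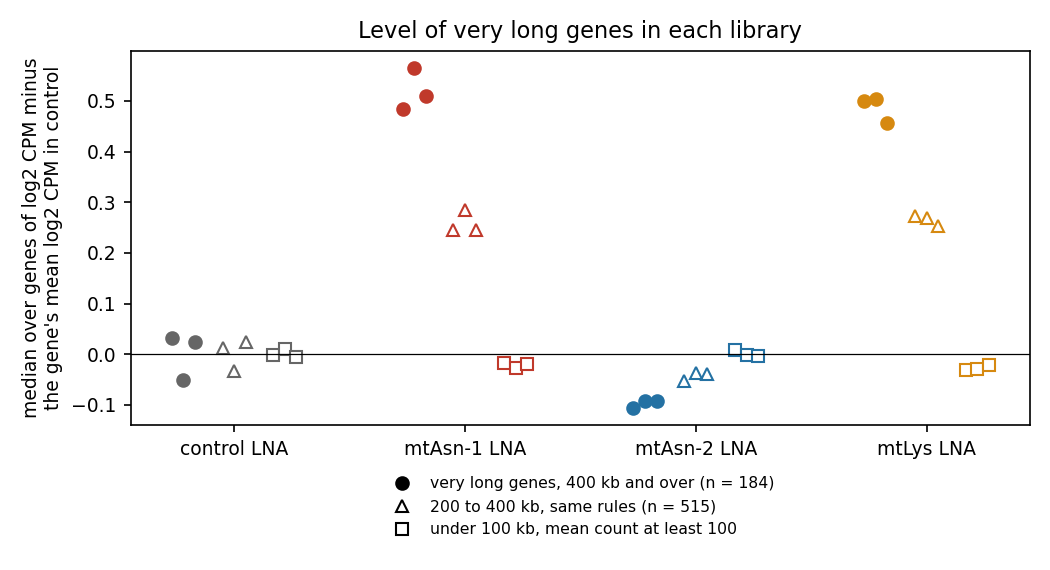
Each point is 1 library, placed by LNA group on the x axis and, on the y axis, by the median over genes of its log2 CPM minus the gene's mean log2 CPM in control libraries; filled circles are the 184 very long genes, triangles 515 genes of 200 to 400 kb chosen by the same rules, and squares genes under 100 kb with a mean count of at least 100. The mtAsn-1 and mtLys circles lie between 0.46 and 0.57, their triangles between 0.24 and 0.29, and the mtAsn-2 circles between -0.11 and -0.09.

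With the mtAsn-1 LNA, 147 of the 184 members rose against control and 5 fell (adjusted p under 0.05, edgeR's quasi-likelihood test with Benjamini-Hochberg adjustment over 16051 genes). Of all genes tested, 24.3% rose and 24.2% fell in this comparison. The median log2 fold change was 0.50 over members and -0.00 over all genes, and 22 members at least doubled while 0 fell by as much. The 3 mtAsn-1 libraries lay wholly above the 3 control libraries in 150 members and wholly below in 6, against 26.9% of all genes in each direction. Among the 171 members with a mean of at least 100 reads in the control libraries, 135 rose, 5 fell and 16 at least doubled, so that 6 of the 22 doublings were in the 13 members chosen through other groups.

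EXOC4, which encodes a subunit of the exocyst, the complex that tethers secretory vesicles to the plasma membrane, lies on chromosome 7 from 133253067 to 134067137 (plus strand, hg38). It was read at 14.8, 15.6 and 15.7 CPM in control, 74.1, 83.6 and 78.8 under mtAsn-1, 34.8, 34.2 and 35.9 under mtAsn-2 and 79.9, 71.9 and 81.3 under mtLys. The control libraries were lowest, the mtAsn-2 libraries lay in between without overlap, and the mtAsn-1 and mtLys libraries overlapped at the top. The log2 fold change against control was 2.36 ± 0.0623 (SE) with mtAsn-1 (edgeR adjusted p = 3.07e-21), the largest of any member. With mtLys it was 2.34 ± 0.0613 and with mtAsn-2 1.19 ± 0.0641, with edgeR adjusted p of 2.4e-21 and 6.65e-15. These comparisons share the control libraries, which holds for all 3 comparisons with control.

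FHIT, a hydrolase of dinucleoside polyphosphates whose gene lies across the fragile site FRA3B (chromosome 3, 59747277 to 61251461, minus strand), was low, at 2.02, 1.92 and 1.98 CPM in control. Its mean of 50 reads there was under the level rule, which it met through the groups where it was higher, as did CACNA2D1 with a control mean of 63.7 reads. It reached 7.54, 9.37 and 8.37 CPM with mtAsn-1, 3, 2.66 and 3.41 under mtAsn-2 and 7.79, 6.65 and 8.30 under mtLys. All LNA libraries were above all control libraries, and the mtAsn-2 libraries were below those of the other tRNA LNAs. The log2 fold change was 2.09 ± 0.139 under mtAsn-1 (edgeR adjusted p = 1.18e-12), 0.62 ± 0.155 under mtAsn-2 (0.00138) and 1.94 ± 0.135 under mtLys (2.54e-12). CACNA2D1, the auxiliary α2δ subunit of voltage-gated calcium channels (chromosome 7, 81946444 to 82443956, minus strand), had 2.32, 2.53 and 2.73 CPM in control. It had 9.76, 9.95 and 9.99 CPM with mtAsn-1, 7.54, 8.75 and 7.52 under mtAsn-2 and 10.7, 9.81 and 10.3 under mtLys, so that here the mtAsn-2 libraries also stood far above control. Its log2 fold changes were 1.98 ± 0.115, 1.66 ± 0.112 and 2.03 ± 0.109 in that order (edgeR adjusted p = 6.59e-14, 8.38e-13 and 1.14e-14).

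SMYD3, a lysine methyltransferase gene (chromosome 1, 245749340 to 246507318, minus strand), rose from 8.44, 7.05 and 7.70 CPM in control to 20.9, 26.0 and 21.3 under mtAsn-1 and 21.2, 20.6 and 22.6 under mtLys, and was at 9.72, 10.7 and 10.3 under mtAsn-2. Its log2 fold change with mtAsn-1 was 1.55 ± 0.0911 (edgeR adjusted p = 8.82e-14). About 5.87% of its exonic length overlaps another gene on the same strand, so part of its reads may be assigned to either. CDH4, the R-cadherin gene (chromosome 20, 61252261 to 61940617, plus strand), was at 6.87, 6.76 and 5.02 CPM in control and at 20.3, 19.7 and 18.2 under mtAsn-1, a log2 fold change of 1.61 ± 0.109 (edgeR adjusted p = 3.13e-12). SDK1, an immunoglobulin-type adhesion molecule gene (chromosome 7, 3301252 to 4269000, plus strand), went from 14.1, 11.1 and 12.9 CPM to 36.5, 38.1 and 32.7, a log2 fold change of 1.49 ± 0.0814 (edgeR adjusted p = 2.65e-14). In neither gene did the groups overlap.

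The promoters of 3 of these genes that rose, and of EDIL3, which fell with mtAsn-2, are shown so that their starts can be read beside their values. These genes were picked by hand, and FHIT and CDH4, which rose more than SMYD3 with mtAsn-1, are not shown. The promoters are the RefSeq windows of GRCh38.p14, 250 bases before and 50 after the start, written 5′ to 3′ on the gene's own strand. Capitals mark GC boxes (GGGCGG on either strand, overlapping copies included) and the YY1 motif AAGATGGCG on either strand. The windows are chr7:133252828-133253127 (plus) for EXOC4, chr1:246507230-246507529 (minus) for SMYD3, chr7:82443907-82444206 (minus) for CACNA2D1 and chr5:84384831-84385130 (minus) for EDIL3.
EXOC4: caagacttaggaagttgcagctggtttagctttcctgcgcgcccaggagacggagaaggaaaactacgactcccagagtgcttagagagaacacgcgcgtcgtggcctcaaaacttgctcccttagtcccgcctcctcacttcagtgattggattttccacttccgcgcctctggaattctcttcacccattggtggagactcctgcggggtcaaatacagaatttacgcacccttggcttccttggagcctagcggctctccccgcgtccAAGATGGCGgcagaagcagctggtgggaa
SMYD3: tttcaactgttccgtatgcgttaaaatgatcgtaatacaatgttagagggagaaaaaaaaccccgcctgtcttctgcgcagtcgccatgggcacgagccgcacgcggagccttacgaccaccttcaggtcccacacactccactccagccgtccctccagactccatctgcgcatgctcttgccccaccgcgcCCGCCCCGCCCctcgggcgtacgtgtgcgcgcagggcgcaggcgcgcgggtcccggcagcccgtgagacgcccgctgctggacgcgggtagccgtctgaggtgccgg
CACNA2D1: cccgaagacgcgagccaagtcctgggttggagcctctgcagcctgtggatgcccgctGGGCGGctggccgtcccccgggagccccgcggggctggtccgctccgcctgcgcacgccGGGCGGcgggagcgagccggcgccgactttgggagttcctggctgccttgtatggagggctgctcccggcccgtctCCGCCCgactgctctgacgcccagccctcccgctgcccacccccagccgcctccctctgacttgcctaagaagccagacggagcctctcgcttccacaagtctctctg
EDIL3: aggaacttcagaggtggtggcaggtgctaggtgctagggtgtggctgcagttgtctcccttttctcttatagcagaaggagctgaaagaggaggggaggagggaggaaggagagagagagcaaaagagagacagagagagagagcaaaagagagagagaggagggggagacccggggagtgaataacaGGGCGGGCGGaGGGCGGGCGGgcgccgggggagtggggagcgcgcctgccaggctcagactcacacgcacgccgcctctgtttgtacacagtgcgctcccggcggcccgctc
EXOC4 had 0 GC boxes and 1 YY1 motif in this window, SMYD3 had 2 GC boxes, CACNA2D1 3 and EDIL3 4. Over the 155 members with a window, 54.8% held a GC box, against 68.4% of 11194 tested genes with one, 69.4% of 432 genes of 200 to 400 kb and 44.6% of all 27303 promoters in the RefSeq table. The ETS core CCGGAAG was in 9.68% of members and 18.1% of tested genes, the YY1 motif in 3.23% and 3.72%, and TATAAA in 7.10% and 5.82%, each counted on both strands. In 24 members the window began over 100 kb inside the gene as the count table annotates it, so these shares describe the RefSeq starts and not all starts in use.

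Further rises with mtAsn-1 covered most roles. LTBP1, which anchors latent TGF-beta in the matrix, went from 97.9, 91.5 and 97.9 CPM to 193, 215 and 188 (log2 fold change 1.05 ± 0.0513). DOCK4, an exchange factor for Rac, went from 51.2, 48.4 and 51.2 to 89.6, 103 and 95.4 (0.94 ± 0.0514). IMMP2L, a mitochondrial inner membrane peptidase subunit gene at a fragile site, rose from 2.13, 2.18 and 2.19 CPM to 4.43, 6.17 and 6.40 (1.40 ± 0.156), but its mean of 55 reads in control was under the level rule, which it met through the groups where it was higher. In each of these 3 genes the groups did not overlap.

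The 5 falls with mtAsn-1 were small. SPAG16, a gene of the axonemal central apparatus, went from 8.81, 9.55 and 10.2 CPM to 5.96, 7.72 and 8.01 (log2 fold change -0.38 ± 0.103, edgeR adjusted p = 0.00303). INPP4B, a phosphatase of phosphatidylinositol 3,4-bisphosphate, went from 27.2, 23.6 and 23.7 to 21.2, 17.4 and 20.5 (-0.33 ± 0.0873, edgeR adjusted p = 0.003). FOXP1, a forkhead transcription factor gene, went from 117, 118 and 112 to 94.6, 96.4 and 96.6 (-0.27 ± 0.0422, edgeR adjusted p = 4.83e-06). The groups did not overlap in any of the 3 genes. EDIL3 fell by 0.24 ± 0.0469 on the log2 scale, with more detail under mtAsn-2. AOPEP, an aminopeptidase gene, had -0.13 ± 0.0486 (edgeR adjusted p = 0.0267), and its call was lost without control replicate 3 (0.113), without mtAsn-1 replicate 1 (0.052) or without mtAsn-1 replicate 2 (0.142).

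**Figure D2:**
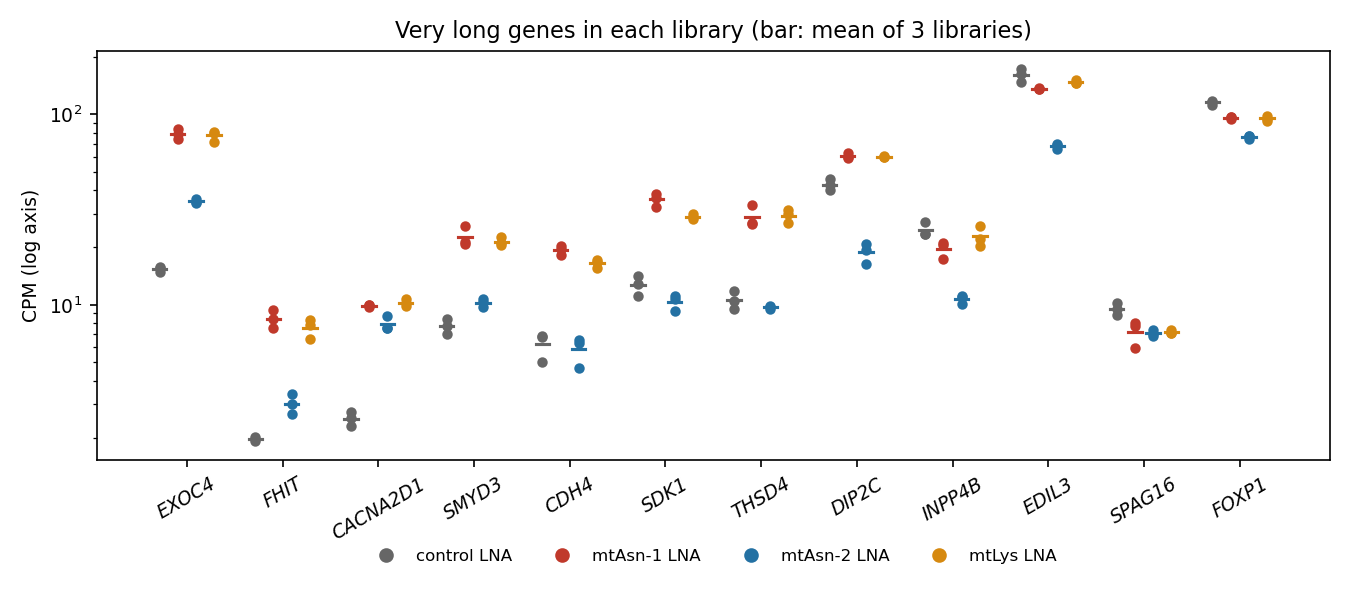
CPM on a log axis for 12 very long genes, with 1 point per library, colours for the 4 LNA groups and a bar at each group's mean of 3 libraries. EXOC4, FHIT and CACNA2D1 rise in all tRNA LNA groups, CDH4, SDK1 and THSD4 in the mtAsn-1 and mtLys groups, and DIP2C, INPP4B and EDIL3 are lowest with mtAsn-2.

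With the mtLys LNA, 151 members rose against control and 4 fell, where 24.6% of all genes rose and 23.9% fell. The median log2 fold change was 0.48 over members and -0.00 over all genes, and 20 members at least doubled. The mtLys libraries lay wholly above control in 155 members and wholly below in 4, against 28.3% and 27.9% of all genes. With the 171 members whose control mean count was at least 100, 139 rose, 4 fell and 14 at least doubled, against 20 over all members. After EXOC4, CACNA2D1 and FHIT, the largest rises were THSD4, SMYD3 and SPOCK1. THSD4, a gene of fibrillin microfibril assembly (chromosome 15, 71115616 to 71783383, plus strand), stood at 11.8, 9.52 and 10.4 CPM in control and 30, 31.4 and 26.8 under mtLys (log2 fold change 1.48 ± 0.0898, edgeR adjusted p = 1.12e-12). SPOCK1, a secreted proteoglycan gene, was at 2.58, 2.08 and 2.62 CPM in control and 6.50, 6.42 and 5.88 under mtLys (1.39 ± 0.125, edgeR adjusted p = 3.36e-10). With a mean of 60.7 reads in control, SPOCK1 also met the level rule only through the other groups. The groups were apart in both genes.

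Falls with mtLys were as few and as small. SPAG16 was at 7.09, 7.12 and 7.34 CPM, below all control libraries (log2 fold change -0.40 ± 0.0973, edgeR adjusted p = 0.00111), and FOXP1 at 95.1, 92.4 and 98.7 (-0.28 ± 0.0413, edgeR adjusted p = 2.23e-06). PCLO, a presynaptic scaffold gene, went from 7.32, 6.99 and 6.57 to 6.15, 5.39 and 5.10 CPM (-0.33 ± 0.111, edgeR adjusted p = 0.0163). Its call was lost without control replicate 1, without mtLys replicate 2 or without mtLys replicate 3, with adjusted p of up to 0.0717. EDIL3 differed by -0.12 ± 0.046, its libraries overlapped control, and the call (edgeR adjusted p = 0.0377) was lost in 8 of the alternatives, with an adjusted p of 0.295 without control replicate 1. The count of 4 falls became 2 without control replicate 1 or without mtLys replicate 3.

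The mtAsn-2 LNA gave another picture: 46 members rose and 71 fell against control, where 24.1% of all genes rose and 27% fell. Most of these rises were shared, since 45 members rose against control with all 3 tRNA LNAs. Only 3 members fell with all 3. The 3 comparisons share the control libraries, and the matching count over all genes is not given here. The share of members that rose, 25%, was close to that of all genes, and 38.6% fell. All genes include many below the members' level. At a mean count of at least 100, 25.4% of genes of 100 to 200 kb rose and 38.3% fell, much as in members. For 200 to 400 kb the shares were 26.6% and 36.3%. In the classes under 100 kb, 28.6% to 29.4% rose and 28.9% to 32.6% fell. The median log2 fold change was -0.10 over members and -0.01 over all genes. The libraries lay wholly above control in 47 members and wholly below in 79, against 27.1% and 29.7% of all genes. Among the 171 members with a control mean count of at least 100, 38 rose and 70 fell. The largest rises after CACNA2D1 and EXOC4 were NRG1, DNAH14, CEP128 and CREB5. NRG1, which encodes a growth factor for ERBB receptors, went from 45.7, 46.5 and 46.1 CPM in control to 81.1, 84.1 and 83.4, a log2 fold change of 0.85 ± 0.0483 (edgeR adjusted p = 2.02e-14). It was at 66.4, 76.0 and 68.3 CPM with mtAsn-1 and 77.1, 77.0 and 76.7 under mtLys, so that its order of groups differed from that of most members. CEP128, a centriole appendage gene, rose by 0.78 ± 0.0798 and CREB5, a leucine zipper transcription factor gene, by 0.74 ± 0.0988 on the log2 scale (edgeR adjusted p = 3.12e-09 and 3.26e-07). DNAH14, an axonemal dynein heavy chain gene of 3.44 to 4.37 CPM in control, rose by 0.84 ± 0.116 under mtAsn-2 (edgeR adjusted p = 6.53e-07).

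The largest falls with mtAsn-2 were EDIL3, INPP4B and DIP2C. EDIL3 (chromosome 5, 83940554 to 84384880, minus strand) was at 173, 148 and 163 CPM in control and 70.2, 65.8 and 69.3 under mtAsn-2, and at 136, 137 and 136 under mtAsn-1 and 147, 153 and 146 under mtLys. The mtAsn-2 libraries were far below all others (log2 fold change -1.23 ± 0.0478, edgeR adjusted p = 4.85e-18), and 3.34% of its exonic length lies opposite a divergent transcript that reads without strand could enter. INPP4B went to 11, 10.1 and 11.2 CPM (-1.21 ± 0.0891, edgeR adjusted p = 2.72e-11). DIP2C, a disco-interacting protein gene (chromosome 10, 274201 to 689710, minus strand), was at 45.9, 39.9 and 42.4 CPM in control and 20.8, 16.4 and 19.3 under mtAsn-2 (-1.18 ± 0.0666, edgeR adjusted p = 2.66e-14), but at 59.5, 63.0 and 59.2 under mtAsn-1 and 60.1, 59.9 and 59.7 under mtLys. Its 4 groups fell into 3 levels, with mtAsn-1 and mtLys together at the top.

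SUMF1, the enzyme that activates sulfatases, fell with mtAsn-2 from 30.9, 29.7 and 32.9 to 14.2, 13.5 and 15.8 CPM (log2 fold change -1.10 ± 0.0753, edgeR adjusted p = 1.67e-12). It had 0.10 ± 0.0721 under mtAsn-1 and 0.09 ± 0.0694 under mtLys, neither past the test. APBB2, an adaptor of the amyloid precursor protein, had -0.95 ± 0.0533, but 50.8% of its exonic length lies opposite NSUN7, whose reads could enter the count. PARD3, a polarity scaffold, went from 57.2, 50.3 and 54.7 to 29.2, 28.5 and 30.3 CPM with mtAsn-2 (-0.88 ± 0.0547, edgeR adjusted p = 1.27e-13), and rose to 67.6, 73.8 and 67.7 under mtAsn-1 and 70.7, 73.5 and 74.2 under mtLys. PRKCA, the protein kinase C alpha gene, followed the same order, with 170, 164 and 175 CPM in control, 105, 106 and 107 under mtAsn-2, 232, 242 and 242 under mtAsn-1 and 261, 247 and 248 under mtLys.

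**Figure D3:**
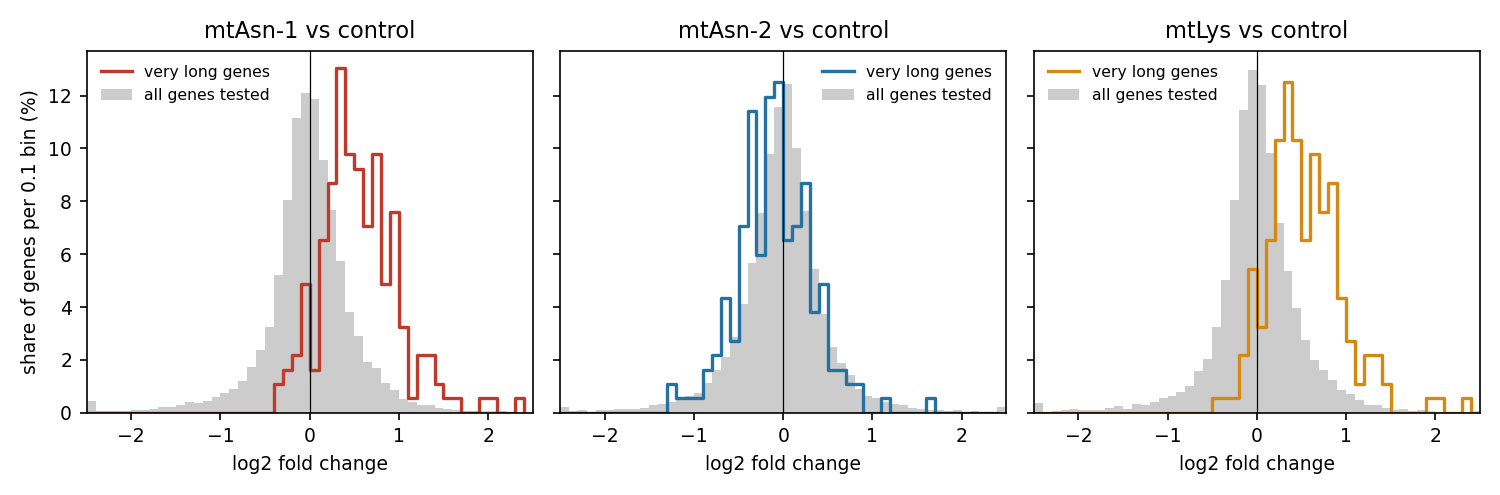
Distributions of log2 fold changes against control for the 184 very long genes (coloured steps) and all 16051 genes tested (grey bars), as the share of genes per bin of 0.1, with 1 panel per tRNA LNA; values beyond the axis are in the end bins. Very long genes lie to the right of all genes with mtAsn-1 (median 0.50) and mtLys (median 0.48) and slightly to the left with mtAsn-2 (median -0.10).

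The 2 asparagine tRNA LNAs were compared directly. With mtAsn-1, 157 members were higher than with mtAsn-2 and 3 were lower, where 24.6% of all genes were higher and 21.9% lower. The median log2 difference was 0.61 over members and -0.00 over all genes. The libraries lay wholly apart upward in 157 members and downward in 4, against 27.4% and 25.3% of all genes. The largest differences were SDK1 (1.78 ± 0.0802), CDH4 (1.72 ± 0.105), RBMS3 (1.72 ± 0.0896), DIP2C (1.68 ± 0.0656), THSD4 (1.57 ± 0.0902) and KCNQ5 (1.56 ± 0.0727), each with an edgeR adjusted p of 2.71e-13 or smaller. RBMS3, an RNA-binding protein gene, was at 15.7, 18.3 and 16.7 CPM with mtAsn-1 and 5.12, 5.15 and 5.02 under mtAsn-2, on either side of 8.96, 8.03 and 8.5 in control. KCNQ5, a potassium channel gene, was at 28.6, 26.4 and 27.1 against 9.33, 9.31 and 9.22, with control at 14.7, 14.2 and 13.1. Lower with mtAsn-1 were DNAH14 (-0.52 ± 0.115), PDE4B (-0.42 ± 0.129) and NRG1 (-0.24 ± 0.0471). PDE4B, a cyclic AMP phosphodiesterase gene, was at 4.34, 3.37 and 4.35 CPM against 5.97, 5.62 and 4.72, and its call (edgeR adjusted p = 0.00832) was lost without mtAsn-1 replicate 2 (0.0541).

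Between mtAsn-1 and mtLys few members differed. There were 5 higher and 5 lower with mtAsn-1, or 2.72% each way, where 2.12% and 3.14% of all genes were called. Over the 184 members the log2 difference had quartiles of -0.05 and 0.09, and ran from -0.46 to 0.33. Libraries lay wholly apart upward in 26 members and downward in 17, against 11.7% and 12.4% of all genes. ROR1, a receptor of the Wnt5a ligand, was lower with mtAsn-1 (28.9, 27.3 and 30.8 CPM) than with mtLys (36.6, 37.5 and 40.1), a log2 difference of -0.38 ± 0.0632 (edgeR adjusted p = 0.000391), and both groups were above control (21.8, 21.0 and 21.7). SHANK2, a synaptic scaffold gene, had -0.32 ± 0.0808 (edgeR adjusted p = 0.0177), a call lost without mtAsn-1 replicate 2, mtAsn-1 replicate 3 or mtLys replicate 2, with adjusted p of up to 0.112. GMDS, the first enzyme of GDP-fucose synthesis, was higher with mtAsn-1 (30.2, 28.4 and 25.9 against 23, 23.4 and 22.8 CPM, 0.28 ± 0.0638, edgeR adjusted p = 0.00805), a call lost without mtAsn-1 replicate 1 (0.0722). The count of 5 higher members became 3 without mtAsn-1 replicate 2 or mtLys replicate 2 and 1 without mtLys replicate 3. The count of 5 lower became 3 without mtAsn-1 replicate 1, 1 without mtAsn-1 replicate 3, and 2 without mtLys replicate 2 or mtLys replicate 3.

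Between mtAsn-2 and mtLys, 2 members were higher with mtAsn-2 and 153 lower, where 22.9% of all genes were higher and 25.7% lower. The median log2 difference was -0.58 over members and 0.01 over all genes. Libraries lay wholly apart downward in 156 members and upward in 3, against 29.1% and 27.5% of all genes. The largest differences were SHANK2 (-1.87 ± 0.0882), TLN2 (-1.71 ± 0.111), DIP2C (-1.67 ± 0.0639), THSD4 (-1.61 ± 0.0867), RBMS3 (-1.60 ± 0.0866) and CPQ (-1.56 ± 0.111), each with an edgeR adjusted p of 2.08e-12 or smaller. SHANK2 was at 5.64, 5.28 and 6 CPM with mtAsn-2 and 19.9, 22 and 20.0 under mtLys, with control between at 9.56, 7.73 and 9.46. TLN2, the gene of the integrin-binding talin 2, had 2.42, 2.5 and 2.80 against 8.73, 7.94 and 8.64 CPM, and 11.2% of its exonic length lies opposite another gene. Higher with mtAsn-2 were DNAH14 (0.59 ± 0.107) and N6AMT1 (0.29 ± 0.102, edgeR adjusted p = 0.0189). The N6AMT1 call was lost without mtAsn-2 replicate 3 or mtLys replicate 2, with adjusted p of up to 0.156, and without mtLys replicate 2 only 1 member was higher.

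By role, 143 members were sorted into 15 lists, some in more than 1, and 41 were in none. Of those 41, 27 rose and 1 fell under mtAsn-1 and under mtLys, and 9 rose and 17 fell under mtAsn-2. The counts below are read beside the shares of all genes, of which 24.3% rose with mtAsn-1, 24.6% with mtLys and 24.1% with mtAsn-2, where 27% fell. They describe each list, some of whose genes fit its name only loosely, and no difference between lists was tested. Of 10 adhesion and cell surface genes, 9 rose with mtAsn-1, 10 under mtLys and 4 under mtAsn-2, where 3 fell. Among these, TENM3, a teneurin gene, had 0.27 ± 0.0442 under mtAsn-1 but -0.64 ± 0.0447 under mtAsn-2, and SEMA3A, a secreted guidance molecule gene, rose with each LNA (0.66 ± 0.0561, 0.25 ± 0.0554 and 0.73 ± 0.0545 for mtAsn-1, mtAsn-2 and mtLys). Of 6 matrix protein genes, 5 rose with mtAsn-1 and with mtLys and EDIL3 fell. ADAMTSL1, a secreted glycoprotein gene, was read at 14.9, 16.0 and 15.2 CPM in control and 31.5, 40.1 and 32.9 under mtAsn-1, with no overlap.

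Scaffolds of polarity and junctions rose in 7 of 9 cases with mtAsn-1 and with mtLys, and fell in 6 of 9 under mtAsn-2, with a median log2 fold change of -0.46 there. MAGI1, a tight junction scaffold gene, was at 58.3, 49.6 and 59.3 CPM in control, 94.3, 99.8 and 95.1 under mtAsn-1, 39.1, 39.4 and 42.9 under mtAsn-2 and 108, 104 and 107 under mtLys. Its mtAsn-2 libraries were below control and the others above, with no overlap. TBC1D5, a Rab GTPase-activating protein gene of endosomes, was at 25.5, 24.1 and 25.1 CPM in control, 35.2, 38.7 and 35.9 under mtAsn-1, 13.5, 13.8 and 14.6 under mtAsn-2 and 37.5, 39.3 and 37.6 under mtLys. Its log2 fold change with mtAsn-2 was -0.83 ± 0.0621 (edgeR adjusted p = 6.11e-12).

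The cytoskeleton and motor list includes SCFD2 and leaves out the dynein gene DNAH14. Of its 17 genes, 14 rose with mtAsn-1 and with mtLys, 4 rose and 6 fell with mtAsn-2, and SPAG16 fell with each. DIAPH3, a formin gene, had 0.55 ± 0.0496 under mtAsn-1 and 0.63 ± 0.0483 under mtLys, and MACF1 0.47 ± 0.0618 and 0.45 ± 0.0615. Of 12 kinase genes, 10 rose with mtAsn-1, 12 under mtLys and 4 under mtAsn-2, where 3 fell. FER, a nonreceptor tyrosine kinase gene, rose with all 3, from 30.8, 28.5 and 31.4 CPM to 41.8, 39.3 and 42.4 under mtAsn-1, 39.2, 43.8 and 39.3 under mtAsn-2 and 41.3, 37.4 and 39.8 under mtLys. The direct difference between mtAsn-1 and mtAsn-2 was 0.02 ± 0.0577 for FER, 0.02 ± 0.106 for ULK4, a kinase-like gene, and 0.03 ± 0.0622 for STAG1, a cohesin subunit gene, against a median of 0.61 over members.

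Of 16 transcription factor genes, 11 rose with mtAsn-1 and with mtLys, and 10 fell with mtAsn-2, where only CREB5 rose. CUX1, a homeodomain factor gene, went from 128, 115 and 122 CPM to 182, 184 and 175 under mtAsn-1, and HIVEP3, a zinc finger factor gene, from 51.4, 52.6 and 54.0 to 35, 36.7 and 38.4 under mtAsn-2. Of 15 chromatin and RNA-binding genes, 14 rose with mtAsn-1, 13 under mtLys, and 5 rose and 5 fell with mtAsn-2. SUPT3H, a subunit of the SAGA coactivator, had -0.80 ± 0.0966 under mtAsn-2 and 0.12 ± 0.094 and 0.10 ± 0.0889 with the others, which did not pass the test. FTO, an RNA demethylase gene, had 0.28 ± 0.0594 under mtAsn-1, -0.63 ± 0.0606 under mtAsn-2 and, short of the threshold, 0.11 ± 0.0579 under mtLys.

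Of 13 membrane traffic genes, 11 rose with mtAsn-1 and with mtLys, and 3 rose and 5 fell with mtAsn-2. EXOC6B, another exocyst subunit gene, was at 12, 11.3 and 10.4 CPM in control, 18.8, 21.9 and 19.4 under mtAsn-1, 16.5, 17.6 and 17.8 under mtAsn-2 and 19.8, 20.3 and 21.4 under mtLys, so that it shared with EXOC4 the rise in all 3 groups. Of 9 genes on the calcium, channel and transporter list, which includes CHRM3 and TMTC2, 8 rose with mtAsn-1 and with mtLys. With mtAsn-2, 5 of them rose and 3 fell. Of 10 metabolic enzyme genes, 9 rose with mtAsn-1, 10 under mtLys and 2 under mtAsn-2, where 3 fell. DPYD, which breaks down pyrimidines, went from 63.9, 62.4 and 70.1 CPM to 113, 118 and 122 under mtAsn-1 and 126, 127 and 126 under mtLys.

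Of the 5 phosphodiesterase, phosphatase and lipid signalling genes, 2 rose with mtAsn-1 and with mtLys, and the list's medians were -0.05 and -0.04. PDE4D, the longest member, had -0.05 ± 0.0646 under mtAsn-1 and -0.05 ± 0.0619 under mtLys, with 30, 32.0 and 30.2 CPM in control, 31.2, 28.1 and 29.5 under mtAsn-1 and 32.0, 28.7 and 28.3 under mtLys. These groups overlapped, and 12.4% of its exonic length lies opposite another gene. Of the 3 ubiquitin list genes, which include ENOX1, a cell surface oxidase gene that is no ubiquitin factor, 2 rose with mtAsn-1 and 3 under mtLys. All 5 genes of the genome maintenance and cell cycle list rose with both, among them CDKAL1, which encodes a tRNA-modifying enzyme. CDKAL1 was at 17.7, 14.9 and 17.4 CPM in control, 19.7, 18 and 20.1 under mtAsn-1 and 18.6, 18.7 and 19 under mtLys, and at 9.25, 10.2 and 9.34 under mtAsn-2. Its rise with mtAsn-1 was lost without control replicate 2, mtAsn-1 replicate 1 or mtAsn-1 replicate 3 (edgeR adjusted p of 0.177, 0.0545 and 0.0925). Its rise with mtLys was lost in 7 alternatives: DESeq2 (adjusted p 0.0763), the replicate block (0.06), and without control replicate 2 (0.343), mtAsn-1 replicate 1 (0.0519) or any of the mtLys libraries (0.0757, 0.0764 and 0.104). Its fall with mtAsn-2 was -0.79 ± 0.0791 (edgeR adjusted p = 2.15e-09).

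Of 8 members known as common fragile site genes, 7 rose with mtAsn-1 and with mtLys, and 5 rose and 1 fell with mtAsn-2. RORA, a nuclear receptor gene, was the one without a rise, at -0.11 ± 0.0882 and -0.12 ± 0.0833. IL1RAPL1, a synaptic adhesion gene, went from 3.73, 4.45 and 3.37 CPM to 6.31, 7.60 and 5.64 under mtAsn-1. LPP, a focal adhesion protein gene, went from 34.1, 28.5 and 31.5 to 56.7, 62.9 and 58.2 under mtAsn-1, 35.6, 43.7 and 36.9 under mtAsn-2 and 58.3, 55.8 and 52.0 under mtLys, with no overlap with control in any group.

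**Figure D4:**
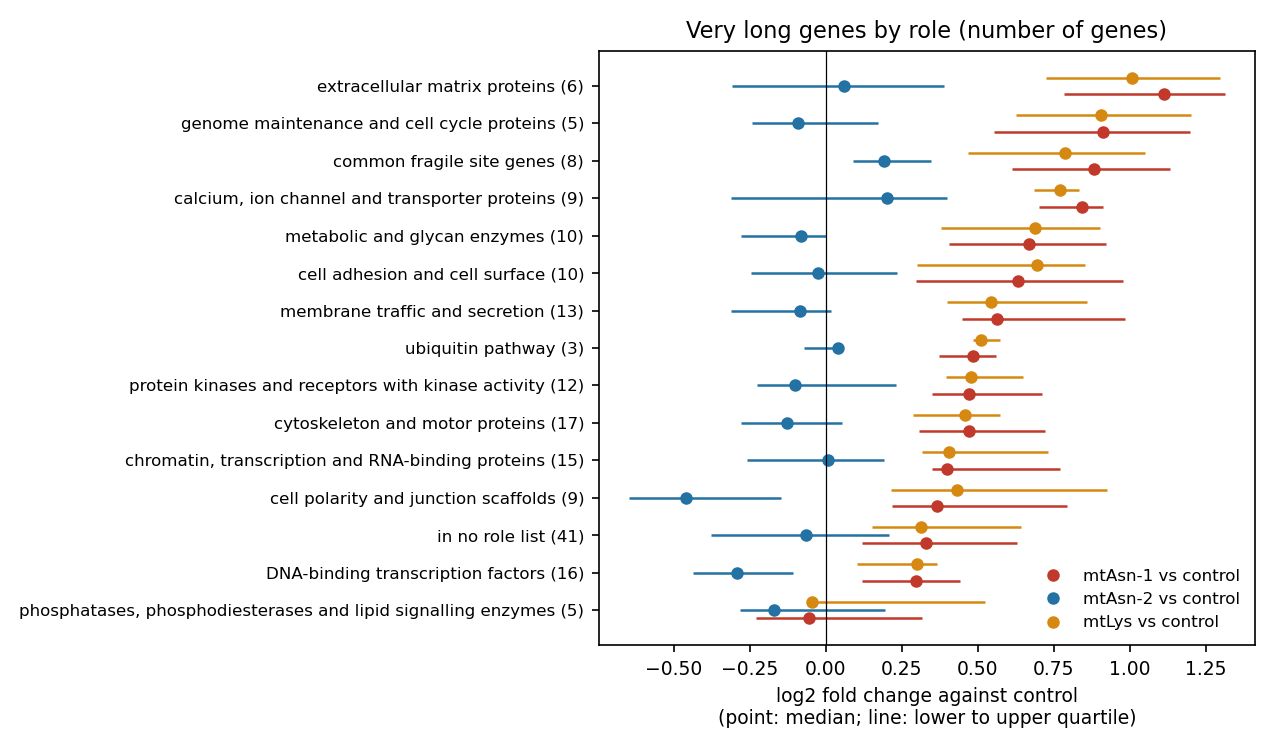
Median log2 fold change against control (point) and lower to upper quartile (line) of the very long genes in the role lists shown, with the number of genes in brackets, for the 3 tRNA LNAs. The mtAsn-1 and mtLys medians lie above 0 in every list shown but the phosphodiesterase and lipid signalling genes (-0.05 and -0.04), and the mtAsn-2 median is lowest for polarity scaffolds (-0.46).

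With mtAsn-1 and mtLys the median change climbed over the span classes above 100 kb rather than setting in at the threshold of 400 kb. With mtAsn-1 the median log2 fold change was -0.02 for genes under 10 kb, -0.04 from 10 to 30 kb, -0.01 from 30 to 100 kb, 0.08 from 100 to 200 kb and 0.26 from 200 to 400 kb, all at a mean count of at least 100. With mtLys these medians were -0.05, -0.05, -0.00, 0.09 and 0.27, and with mtAsn-2 0.01, 0.01, -0.01, -0.05 and -0.04. Of 515 genes of 200 to 400 kb chosen by the same rules, 332 rose and 36 fell with mtAsn-1, 337 and 25 under mtLys, and 138 and 187 under mtAsn-2. Among members, the 61 of at least 600 kb had medians of 0.68 under mtAsn-1, -0.08 under mtAsn-2 and 0.63 under mtLys, and the 123 shorter ones 0.46, -0.10 and 0.42. Spearman's rho of span with log2 fold change, across genes that are not independent replicates and share the same libraries, was 0.21, 0.08 and 0.20 over members in that order and 0.20, -0.06 and 0.24 over 11022 genes. Within members, rho with exonic length was -0.03 for mtAsn-1 and -0.07 for mtLys, and with the number of exon blocks 0.04 and 0.01.

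**Figure D5:**
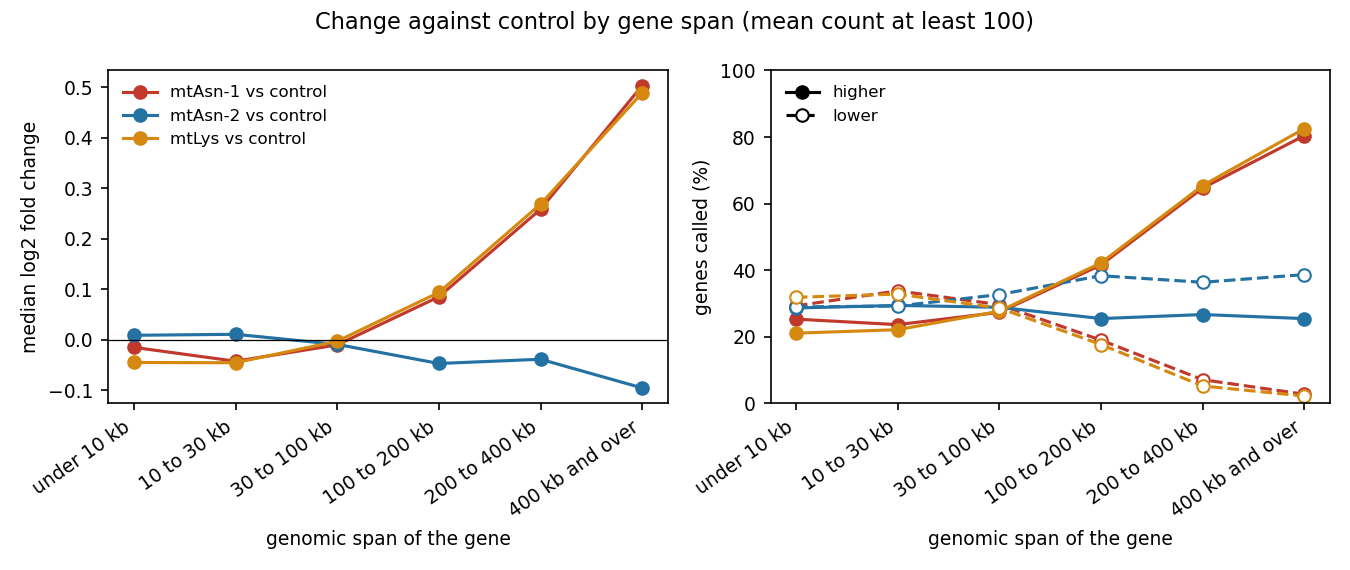
Left, median log2 fold change against control by class of genomic span (x axis) for genes with a mean count of at least 100; right, share of genes in each class that rose (solid, filled) or fell (dashed, open) at an adjusted p under 0.05. The mtAsn-1 and mtLys medians climb from 0.08 and 0.09 at 100 to 200 kb to 0.50 and 0.49 at 400 kb and over, where the class also holds the 5 genes dropped by name.

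Members had a median transcript GC content of 44.5% (182 matched to the longest GENCODE v29 transcript), against 47.9% over 10734 genes with a mean count of at least 100. Genes were also described within bands of GC content, cut at the quartiles of all genes. With mtAsn-1 the members' medians were 0.38, 0.52, 0.59 and 0.59 from the lowest to the highest GC band (49, 77, 46 and 10 members), and the medians of genes under 100 kb were -0.09, -0.05, 0.01 and 0.04. With mtLys the members had 0.39, 0.48, 0.53 and 0.61, and genes under 100 kb -0.07, -0.05, 0.00 and 0.01. In each band members stood above the short genes. Opposite-strand exon overlap was found in 66 members, and in 9 it exceeded 10% of the exonic length. Strand use in the counting is not given in the sources used here, so reads of such pairs cannot be told apart. In the 118 members without any, 90 rose and 3 fell with mtAsn-1 and 93 rose and 3 fell with mtLys, with medians of 0.50 and 0.47.

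Genes within or beside the members were read in the same way. Of 45 tested genes that lie wholly inside 31 of the members, 11 rose and 7 fell with mtAsn-1 and 12 rose and 8 fell with mtLys, with medians of 0.08 and 0.04. With mtAsn-2, 14 rose and 7 fell, with a median of 0.16. The 20 on the member's own strand had medians of 0.17 with mtAsn-1, 0.06 with mtLys and 0.36 with mtAsn-2. Nearest neighbours were the closest tested genes outside the members whose own span was under 100 kb, at any distance. There were 347, at a median distance of 252 kb. Of these, 57 rose and 91 fell with mtAsn-1 (median -0.03) and 64 rose and 92 fell with mtLys (median -0.04). With mtAsn-2, 67 of these neighbours rose and 89 fell (median 0.00). The shares that rose with mtAsn-1, 24.4% and 16.4%, lay near or below the 24.3% of all genes.

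Transcription machinery was read from a list of 78 tested genes for elongation factors, topoisomerases, the U1 snRNP and 3′ end formation. The list pools factors that very long genes are known to depend on with factors of cleavage and polyadenylation. Its counts therefore describe the list and have no single meaning for long genes. Of these, 11 rose and 35 fell with mtAsn-1, 10 rose and 36 fell with mtLys, and 19 rose and 24 fell with mtAsn-2, with medians of -0.10, -0.11 and 0.01. The shares that fell, 44.9% with mtAsn-1 and 46.2% with mtLys, stood beside 24.2% and 23.9% of all genes, and with mtAsn-2 the 24.4% that rose and 30.8% that fell were near the 24.1% and 27% of all genes. The list was not matched to all genes in level or span. At a mean count of at least 100, 33.7% of genes of 10 to 30 kb fell with mtAsn-1 and 32.8% with mtLys. For genes of 30 to 100 kb these shares were 29.6% and 28.6%. POLR2A, the largest subunit of RNA polymerase II, was at 20.1 ± 2.51 CPM in control (SD, n = 3), 9.53 ± 1.88 under mtAsn-1, 11.4 ± 0.838 under mtAsn-2 and 8.62 ± 0.663 under mtLys. Its log2 fold changes were -1.08 ± 0.109, -0.84 ± 0.1 and -1.23 ± 0.104 (edgeR adjusted p = 1.89e-08, 1.9e-07 and 9.09e-10). SUPT5H, the DSIF elongation factor subunit gene, fell in each group, by 0.41 ± 0.0402 on the log2 scale with mtAsn-1, and CDK9, the kinase of the elongation factor P-TEFb, rose in each, by 0.37 ± 0.0452, 0.39 ± 0.044 and 0.32 ± 0.0442.

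Some of these genes had their largest difference from control with mtAsn-2. CDK12, a kinase whose loss is known to favour early polyadenylation in long genes, was at 106 ± 3.57 CPM in control, 148 ± 8.28 under mtAsn-2, 99.0 ± 4.72 under mtAsn-1 and 97.1 ± 4.25 under mtLys, and mtAsn-1 differed from mtAsn-2 by -0.58 ± 0.0479 (edgeR adjusted p = 5.73e-11). FIP1L1, a polyadenylation factor gene, had -0.98 ± 0.0509 under mtAsn-2, against -0.15 ± 0.0504 under mtAsn-1 and -0.17 ± 0.049 under mtLys. TOP1 had 0.05 ± 0.0399, 0.10 ± 0.0393 and -0.00 ± 0.0394 under mtAsn-1, mtAsn-2 and mtLys, and TOP2B 0.24 ± 0.0445, 0.20 ± 0.0438 and 0.18 ± 0.0439. Whether any of these levels bears on the very long genes was not tested.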

How the data were processed

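Libraries were made with a TruSeq RNA kit (per the labels). The table as deposited holds raw counts per gene for the 12 libraries, which the authors made with STAR 2.6.0a and featureCounts on hg38, per the submitters' processing notes; for strand use and multiple matches the setting is "not given in the sources used here". Each library was put in its group by its label. Of the table, 12 genes on broken lines were left out, among them TTN and DST.

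Counts were scaled by TMM and tested with edgeR 4.0.16 (quasi-likelihood, robust) in R 4.3.3, in 1 fit of all 12 libraries, after a filter on low counts (edgeR's filterByExpr by group, with a minimum count of 10 and a minimum total of 15). P-values were adjusted by Benjamini and Hochberg over 16051 genes, with a threshold of 0.05. Standard errors were derived from the F statistic. CPM are TMM-scaled, and RPKM divide them by exonic length. The script was tested on simulated data. Total counts per library set the precision, and low members such as FHIT rest on fewer reads. As alternatives, the test was rerun with DESeq2 1.42.0, with RLE factors, with a stricter filter or none, with the replicate number as a block, on only the groups being compared, with mitochondrial genes kept out of the factors, and with each library left out, and medians were taken over members of at least 600 kb or a mean count of at least 300. A control mean count of at least 100 was added after seeing the data. Python 3.11.15 was used for tables (pandas 2.3.3, numpy 2.4.6) and for plots (matplotlib 3.10.9).

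Members and lists were chosen with earlier results of these data known. Named genes were, per comparison, the 6 largest rises and falls past the test whose libraries did not overlap. Of members past the test in one direction against control with every LNA, up to 6 rises and 6 falls were named. They were those whose smallest change was largest. The 6 longest and the 6 highest per exonic length were also named. Up to 2 genes per role list, machinery list and direction were added by the smallest adjusted p. TOP1 and TOP2B were added after their values were seen. 1 role list and 1 machinery gene are not reported here.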

Additional observations from a re-analysis of the deposited data

How the results depend on the processing

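Of 380 calls on named genes, 341 stayed past the test in every alternative run, 39 were lost in at least 1, and 0 changed direction. RLE factors and factors without mitochondrial genes lost 0 calls, DESeq2 7, no filter 6, the stricter filter 1 and the compared groups alone 4. Leaving out 1 library lost between 4 and 13. With members of at least 600 kb the median log2 difference was 0.68 for mtAsn-1 against control, 0.63 for mtLys against control, 0.81 for mtAsn-1 against mtAsn-2 and -0.73 for mtAsn-2 against mtLys, by the choice of longer genes. With a library left out, members lower with mtLys than control ranged from 2 to 4, members higher with mtAsn-1 than mtLys from 1 to 6, members lower from 1 to 5, and members higher with mtAsn-2 than mtLys from 1 to 3. The median for mtAsn-2 against mtLys then ranged from -0.61 to -0.56; its cause was not tested. Members higher with mtAsn-1 than control ranged from 141 to 147, and with mtLys from 142 to 151.

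The labels number replicates 1 to 3 in each group. Deviations of libraries with the same number correlated between -0.099 and 0.042, so that the number was not taken to pair them. With the replicate number as a block, 147 members were higher and 5 lower than control under mtAsn-1, 148 and 3 under mtLys, and 45 and 71 under mtAsn-2. The block gave 157 and 3 for mtAsn-1 against mtAsn-2, 5 and 4 for mtAsn-1 against mtLys, and 2 and 151 for mtAsn-2 against mtLys. It lost 5 calls on named genes. Low read numbers limit members such as IMMP2L, whose mean count was 115.4.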

Other observations

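Very long genes read at lower levels were outside the members. Of the genes of at least 400 kb on main chromosomes that entered the test with a mean count under 100, 105 in all, 45 rose and 6 fell with mtAsn-1, 12 rose and 14 fell with mtAsn-2, and 55 rose and 5 fell with mtLys. Their median log2 fold changes were 0.57, -0.08 and 0.64. The filter on low counts could let such a gene in through a single group where it was high. Rises in these genes may therefore be in part fixed by the filter. The rule on names was not applied to them, so noncoding RNA genes can be among them. With mtAsn-1, 24.3% of all genes rose, and in these low genes 54 of 105 passed the test in neither direction.

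Pairs of comparisons that share no library were also set side by side, as a description across genes that share libraries and are not independent. Over the 184 members, Spearman's rho between the mtAsn-1 difference from control and the difference of mtAsn-2 from mtLys was -0.44, against -0.28 over all 16051 genes tested. Between the mtLys difference from control and that of mtAsn-1 from mtAsn-2 it was 0.49, against 0.31 over all genes. For the remaining pair, mtAsn-2 against control and mtAsn-1 against mtLys, it was 0.14 over members and 0.04 over all genes.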
